A study of Mus musculus with 4 samples.

Results

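The mouse potassium channel genes were taken as the protein-coding genes whose symbols begin with Kcn, which gave 94 of 21883 protein-coding genes on chromosomes 1 to 19, X and Y. They were described by the regions that a ChIP-seq experiment called for the DNA-binding protein CTCF around them. ChIP-seq recovers the DNA held by a protein with an antibody and sequences it, and a region here is a stretch of genome where a peak caller found more reads than in the local background. A region was assigned to a gene when its summit, the position of highest signal, lay within 10 kb of the gene span. The study used left-ventricular cardiac myocytes isolated from C57BL/6 mice, with 1 CTCF ChIP library for controls and 1 for the genotype labelled CTCF knockout. Cells of 3 hearts were pooled for each library. How the gene was deleted, how far CTCF was lost and the age of the animals, not given in the sources used here, could not be stated, and the second library is called the library labelled knockout. The list from that library still held 16128 regions beside 20043 in the control list.

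CTCF binds a long, well-defined DNA motif with an array of zinc fingers, and together with cohesin it holds the boundaries of chromatin loops and domains, so its sites can lie in promoters, in introns or far from any gene. Potassium channels carry the outward current that repolarises the cardiac action potential and sets the resting potential of the myocyte. The family comprises pore-forming subunits opened by voltage, inward rectifiers, tandem-pore leak channels and channels opened by calcium or sodium, together with auxiliary subunits that change their gating or their trafficking.

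The promoters in which a CTCF summit fell show the sequence at which regions were called. Promoter sequences were taken from RefSeq on GRCm38.p6, the assembly called mm10, as windows from 250 bases before to 50 bases after a gene start. In all, 94 such windows were found for 69 of the 94 genes. A control summit lay in 3 of these 94 windows (3.19%), beside 3.81% of the 32851 windows of all genes. The 3 belonged to Kcnh1, a voltage-gated channel of the ether-à-go-go type, Kcnk13, a tandem-pore channel, and Kcnk15, a tandem-pore subunit that forms no functional channel on its own. The fourth promoter printed is that of Kcnj2, the main inward rectifier of the ventricle. The 250 bases before each start are given 5′ to 3′ on the strand of the gene. A short CTCF core, AGNNGGC, and a longer core, which is the short core with CCANN directly before it, were searched on both strands. The capitals mark the longer core in Kcnk13 and Kcnj2 and the short core in Kcnh1 and Kcnk15. Every longer core is thus also a short core.
Kcnh1: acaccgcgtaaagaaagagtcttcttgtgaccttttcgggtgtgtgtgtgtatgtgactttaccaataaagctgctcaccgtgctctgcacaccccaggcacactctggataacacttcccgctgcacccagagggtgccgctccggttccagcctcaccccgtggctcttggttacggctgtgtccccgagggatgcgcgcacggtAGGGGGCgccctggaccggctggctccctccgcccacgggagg
Kcnk13: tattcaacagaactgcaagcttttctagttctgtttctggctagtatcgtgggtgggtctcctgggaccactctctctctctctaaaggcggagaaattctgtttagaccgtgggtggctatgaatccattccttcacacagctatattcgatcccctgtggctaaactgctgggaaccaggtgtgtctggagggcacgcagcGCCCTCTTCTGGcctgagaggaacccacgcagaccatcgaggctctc
Kcnk15: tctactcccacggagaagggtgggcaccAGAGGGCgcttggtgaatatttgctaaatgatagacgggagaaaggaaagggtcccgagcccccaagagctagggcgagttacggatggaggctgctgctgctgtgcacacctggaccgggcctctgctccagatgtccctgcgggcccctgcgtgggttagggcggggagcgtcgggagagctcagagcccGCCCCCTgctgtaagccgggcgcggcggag
Kcnj2: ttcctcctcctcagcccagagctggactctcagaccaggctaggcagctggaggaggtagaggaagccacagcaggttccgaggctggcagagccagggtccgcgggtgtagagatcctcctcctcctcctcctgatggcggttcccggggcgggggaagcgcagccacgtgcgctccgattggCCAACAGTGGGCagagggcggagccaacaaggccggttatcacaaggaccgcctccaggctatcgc

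The Kcnh1 bases lie at chr1:192190527-192190776 on the plus strand. The control summit was 65 bases before the start and 25 bases from the centre of the nearest short core, and the summit of the library labelled knockout was 67 bases before the start. A further short core of Kcnh1 runs across the start and is therefore not in the bases printed. The Kcnk13 bases lie at chr12:99964249-99964498 on the plus strand. Its longer core lies on the minus strand, 22 bases from the control summit and 16 bases from the summit of the library labelled knockout. Both starts lie inside the gene spans of the gene table, since a gene can have several starts. The Kcnk15 bases lie at chr2:163853500-163853749 on the plus strand, and the control summit was 148 bases before the start and 71 bases from the nearest short core. No region of the other list overlapped it. The Kcnj2 bases lie at chr11:111065914-111066163 on the plus strand. The longer core was there, but no region of either list reached the window, and the nearest control summit lay 1.31 kb before the gene. The longer core occurred in 4 of 94 Kcn windows (4.26%), those of Kcnab1, Kcnj16, Kcnj2 and Kcnk13, and in 2.43% of all windows. The short core occurred in 63.8% of Kcn windows and 59.8% of all windows, so its presence in a promoter is common. A match describes the letters only.

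Of the 94 Kcn genes, 55 had a control region within 10 kb (58.5%, Wilson 95% interval 48.4% to 67.9%), beside 50.1% of all protein-coding genes. A region of the library labelled knockout lay near 49 genes (52.1%, interval 42.1% to 61.9%), beside 44.2% of all. Both lists had a region near 47 genes (beside 41.9% of all), and neither list had one near 37 (beside 47.6% of all). A control region alone was found near 8 genes (8.17% of all genes were in this state), namely Kcna10, Kcnd1, Kcnd2, Kcne1l, Kcnh3, Kcnn2, Kcnn3 and Kcnv2. A region of the library labelled knockout alone was found near 2 genes, Kcnb2 and Kcnj12 (beside 2.27% of all). The intervals cover counting error only, and with 1 library per genotype no test between genotypes was possible. A gene in 1 state and not the other is thus a difference between these libraries.

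**Figure D1:**
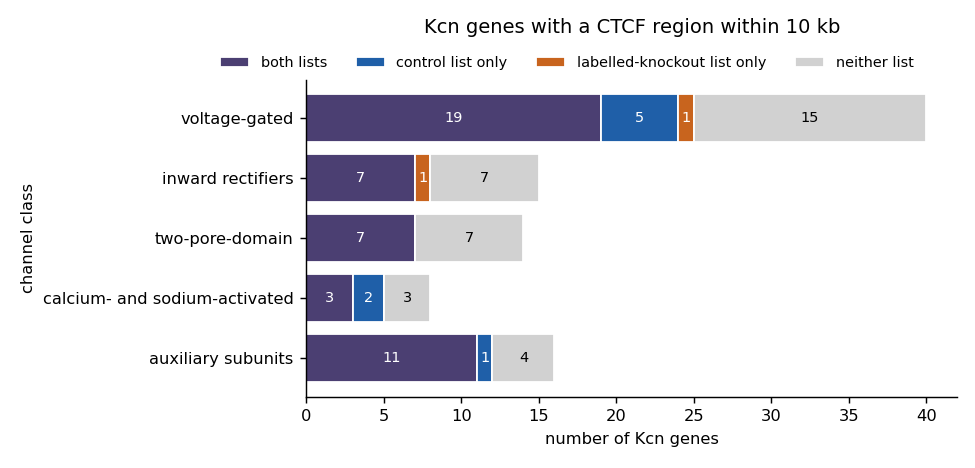
Number of Kcn genes (horizontal axis) in each channel class (vertical axis) with a CTCF region within 10 kb in both lists, in the control list only, in the list labelled knockout only or in neither. Among 40 voltage-gated genes 19 had regions in both lists, and among 16 auxiliary subunit genes 11 did, beside 41.9% of all protein-coding genes. Kcnrg, which fits no class, had no region and is not drawn.

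Longer genes offer more sequence, and the Kcn genes were long. Their median span was 32.7 kb beside 17.2 kb over all protein-coding genes. All protein-coding genes taken in the length proportions of the Kcn genes had a control region in 55.3% and a region of the library labelled knockout in 48.8%, both inside the Kcn intervals. In the control list 10 of 21 Kcn genes under 10 kb had a region (47.6%, interval 28.3% to 67.6%, beside 35.9% of all genes of that length), and 17 of 23 from 10 to 30 kb did (73.9%, 53.5% to 87.5%, beside 52.8%). Of the genes from 30 to 100 kb, 14 of 27 had one (51.9%, 34.0% to 69.3%, beside 58.6%), and of those over 100 kb, 14 of 23 (60.9%, 40.8% to 77.8%, beside 71.4%). Over all genes the share was higher in each longer bin, while in the Kcn genes it had no such order. The Kcn intervals overlapped one another, so with 21 to 27 genes per bin an order could not be told from its absence. In the list labelled knockout the Kcn shares were 42.9%, 56.5%, 55.6% and 52.2% from the shortest bin to the longest. Kcn genes with a control region had a median span of 32.1 kb and those with regions in neither list 36.2 kb, whereas the same medians over all genes were 24.0 kb and 11.1 kb.

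**Figure D2:**
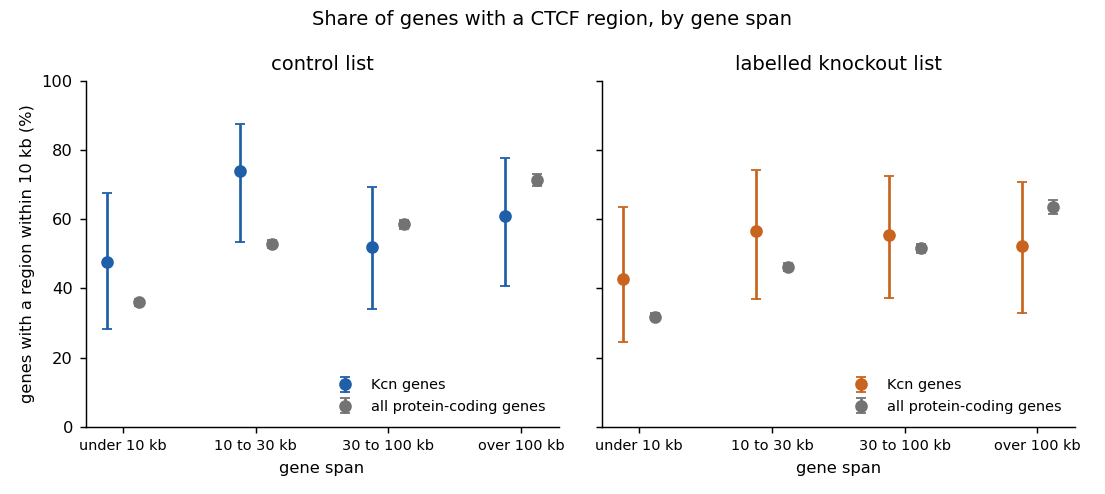
Share of genes (vertical axis, percent) with a CTCF region within 10 kb by gene span (horizontal axis), for Kcn genes in colour and all protein-coding genes in grey, in the control list and in the list labelled knockout. Points are shares and bars Wilson 95% intervals. Over all genes the control share went from 35.9% under 10 kb to 71.4% over 100 kb. The Kcn control shares ran from 47.6% to 73.9% with no order in length and with intervals that overlapped one another.

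The 55 genes held 111 control regions, no region was shared between Kcn genes, and 25 of the genes had a single region. The fold enrichment, which is the authors' own value for each region over its local background, had a median of 7.48 near Kcn genes and 6.98 over the whole control list, and ran from 2.48 to 24.8. By place, 53 of the 111 regions (47.7%) had their summit inside the gene span more than 1 kb from its ends, 14 (12.6%) within 1 kb of an end and 44 (39.6%) farther outside. Over all pairs of a control region with a protein-coding gene, these shares were 41.0%, 19.05% and 39.98%. Of the 111 regions, 18 had another protein-coding gene as near or nearer, and 8 of these lay inside that gene. Counting only the 93 regions whose nearest gene was the Kcn gene left 48 genes with a control region. The same restriction was not applied to all protein-coding genes, so their share given above is not its counterpart.

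A control region was called kept when a region of the library labelled knockout overlapped it by at least 1 bp, and lost when none did; a lost region is one that was not called, which need not mean that CTCF was absent. Of the 111 control regions 82 were kept (73.9%, interval 65.0% to 81.1%), beside 69.0% of all control regions and 68.3% of those near protein-coding genes. All control regions were also split by fold enrichment into 10 bins of equal size. Averaged over the bins of the Kcn regions, the share of all control regions kept was 71.2%. Below, regions of the same fold enrichment are those of the same bins. The median fold enrichment was 8.31 in kept and 5.48 in lost regions. Of the 34 Kcn regions at or above the upper quartile of the whole list, a fold enrichment of 9.47, 32 were kept (96.6% over all regions of that strength), and of the 28 at or below the lower quartile, 5.48, 11 were kept (37.3% over all). The share kept near Kcn genes was thus close to that of regions of like strength anywhere. The list labelled knockout held 96 regions near Kcn genes, of which 12 had no control region (12.5%, interval 7.30% to 20.6%), beside 14.2% of that whole list and 13.5% of its regions near protein-coding genes.

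**Figure D3:**
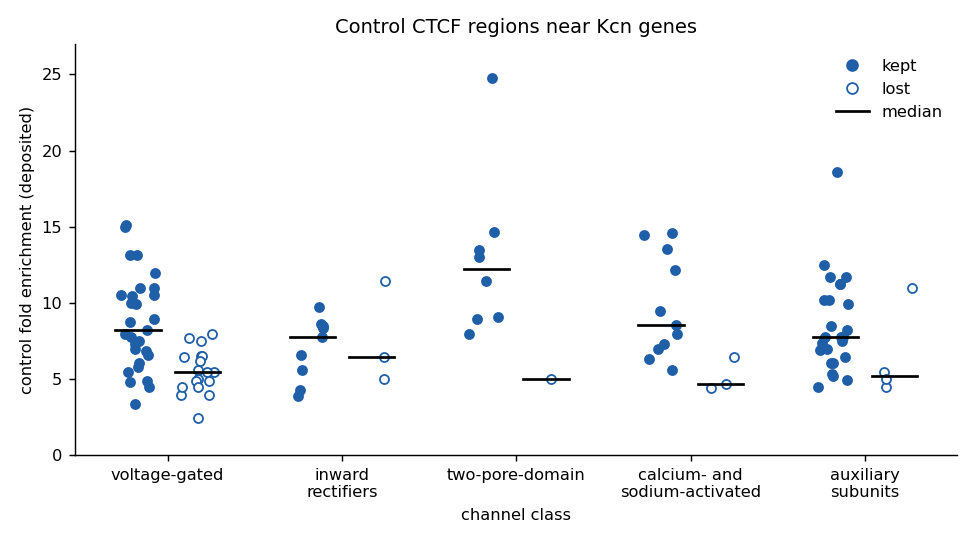
Deposited fold enrichment (vertical axis, linear) of the 111 control regions near Kcn genes by channel class (horizontal axis), with kept regions filled, lost regions open and the median of each as a bar. In each class the median of the kept regions lay above that of the lost regions, and the highest lost value was 11.5, near Kcnj9.

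Most lost regions rested on few reads. The pileup, the number of reads stacked at the summit, could be recovered for all regions of both lists from the deposited values if the fold enrichment and the p-value are those that MACS2 computes. The median was 16 reads in the Kcn control regions, from 7 to 63. Of the 66 regions with at least 15 reads 6 were lost (90.6% of all such regions were kept), near Kcnj9, Kcnab1, Kcna7, Kcnq1, Kcna10 and Kcnh1. Of the 45 regions with fewer reads 22 were kept (48.9%, beside 43.5% over all). The lowest local background in the list labelled knockout was 0.846 times that of the control list, a measure that scales with read number and fragment length, and its part in the lost regions was not tested.

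Kcnq1, the pore subunit of the slow delayed rectifier current (chr7:143106877-143427050, 320 kb), had 5 control regions, of which 4 were kept. With a match defined by summits within 100 bp 2 of the 5 were kept, and when only regions with −log10 q from 5 upward were used in both lists, 2 of 3 were. All 5 summits lay in the 47.2 kb next to the lower-coordinate end of the gene, and the remaining span held none. The fold enrichment of the region nearest that end was 5.48 in control and 6.47 in the other list. At 32.1 kb the values were 8.76 and 5.87. Then 3 control regions followed within 3.14 kb. The first of them had 4.87 and 6.20, and the last, at chr7:143153868-143154271, had 13.1 with 26 reads in the control list (exact Poisson 95% interval 16.98 to 38.1) and 13.9 with 28 reads in the other (18.6 to 40.5). The lost region between them, at chr7:143152332-143152622, had 7.71 and 15 reads (8.40 to 24.7), and a region of the other list was called 925 bp away. Kcnq1ot1, the non-coding RNA gene inside the Kcnq1 locus that serves imprinting, had no region within 10 kb in either list; the nearest summits lay 59.1 kb away in both.

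Kcnh2, the pore subunit of the rapid delayed rectifier (chr5:24319589-24351684), had 3 control regions and 2 were kept. For the region inside the gene the fold enrichments were 8.97 in control and 7.80 in the list labelled knockout. Of the 2 regions upstream, that at 6.04 kb had 6.52 with 13 reads and was lost. The other, at 9.34 kb, had the fourth-highest control value of the family, 14.96 (29 reads), with 13.2 (26 reads) in the other list. It lay nearer to Nos3, at 3.79 kb, than to Kcnh2.

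The Kcnd genes encode the pore of the fast transient outward current. Kcnd2, which spans 514 kb (chr6:21215346-21729805), had a single control region, inside the gene, with a fold enrichment of 5.61 and 12 reads (interval 6.20 to 21.0). It was lost, and the nearest summit of the other list lay 65.4 kb outside the gene. Kcnd3 (chr3:105451890-105674002) had 3 control regions. That 0.736 kb beyond its downstream end was kept, with 8.19 in control and 8.15 in the other list, and those 1.13 kb upstream (4.49, 8 reads) and inside the gene (6.52, 13 reads) were lost. Kcnd1 had 1 lost region (5.48), which lay inside the neighbouring gene Gripap1. In sum 1 of 5 Kcnd regions was kept (20%, interval 3.62% to 62.4%), beside 55.0% of all control regions of the same fold enrichment, and none of the lost regions had more than 13 reads.

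Kcnip2, the calcium-sensing auxiliary subunit of the Kcnd channels (chr19:45792346-45816422), had 3 control regions inside its span and all 3 were kept. Their fold enrichments were 10.2, 7.48 and 10.2 in the control list and 4.75, 5.28 and 6.48 in the list labelled knockout, with 20, 14 and 20 reads and 10, 14 and 11 reads. When only regions with −log10 q from 5 upward were used in both lists, 2 of the 3 were kept. The count was also 2 of 3 with fold enrichments from 5 upward and under a reciprocal overlap of 50%. The third region lay within 1 kb of the upstream end, and in the list labelled knockout it reached 144 bases into a promoter window of the gene. Over the 4 Kcnip genes 13 of 13 control regions were kept (interval 77.2% to 100%), beside 75.8% of all control regions of the same fold enrichment. This contrast with the Kcnd genes was noticed after the values were seen, and was not tested.

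Kcna5, the pore of the ultrarapid delayed rectifier (chr6:126532551-126535555), was the only one of the 8 named cardiac channels without a region. Its nearest control summit lay 16.6 kb away with a fold enrichment of 11.96, and the nearest summit of the other list also lay 16.6 kb away with 9.51. Between Kcna5 and the next gene of its cluster, Kcna1, 3 control regions were called and 2 were kept.

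Kcnj2 (chr11:111066164-111076825) had 1 control region 1.31 kb upstream, with a fold enrichment of 8.47 and 16 reads, which was kept with 5.82 and 14 reads. The list labelled knockout held a second region 0.918 kb upstream, with 4.56 and 8 reads (interval 3.45 to 15.8), which lay 133 bp from the control region without overlapping it. Kcnj11 encodes the pore of the ATP-sensitive potassium channel (chr7:46097123-46100952). Its control region lay 0.791 kb outside the gene with 8.37 and 25 reads, and the matching region had 8.89 and 21 reads. A further region inside the gene, with 5.19 and 11 reads, was called in the list labelled knockout only. Taken over the 8 named channels, 7 had a control region and 6 a region in the other list, beside 50.1% and 44.2% of all genes. Kcnq1, Kcnd2 and Kcnd3 span over 100 kb, and 71.4% of all genes of that length had a control region. Of the 17 control regions of the 8 channels 12 were kept (70.6%, interval 46.9% to 86.7%), beside 74.8% of all control regions of the same fold enrichment.

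**Figure D4:**
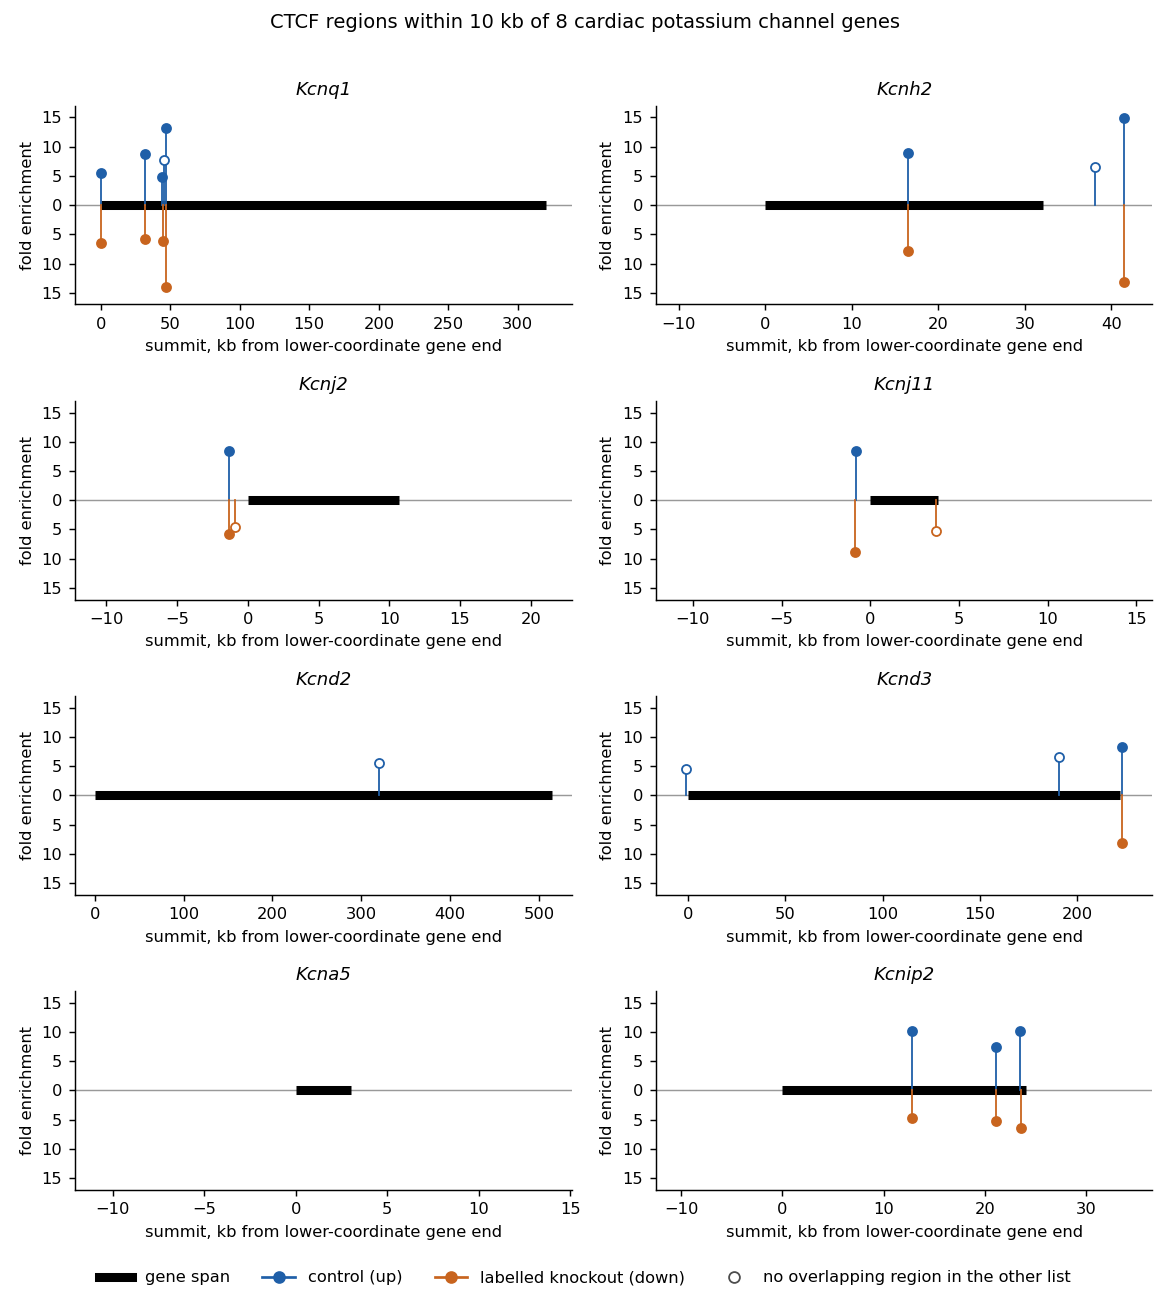
Maps of the 8 named cardiac channel genes, with distance of each summit from the lower-coordinate end of the gene (horizontal axis, kb) and deposited fold enrichment (vertical axis), control regions upward and regions labelled knockout downward; open symbols have no overlapping region in the other list and the black bar is the gene span. The Kcnq1 regions sit in the first 47.2 kb of a 320 kb gene, the 3 Kcnip2 regions are called in both lists, and Kcna5 has none.

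The other voltage-gated genes brought the class to 24 of 40 genes with a control region (60%, beside 50.1% of all genes). In this class 29 of 47 regions were kept (61.7%, interval 47.4% to 74.2%), beside 66.7% of all regions of the same fold enrichment. The strongest was Kcnh1 at its promoter, with 15.1 and 30 reads in control and 8.54 and 21 reads in the other list. Kcnh1 had 2 further control regions and both were lost. That with 57 reads had the lowest fold enrichment of any Kcn control region, 2.48, and was the only one with a local background above 5 reads. Kcna7 had 3 regions within 10 kb of a 5.42 kb gene. The kept one, 0.673 kb upstream, had 10.5 and 29 reads, and the lost ones had 7.98 (15 reads) and 7.48 (14 reads). The lost region with 7.48 lay nearer to Snrnp70, at 0.343 kb, than to Kcna7. All 3 regions of Kcng1, a silent subunit that modifies other voltage-gated channels, were kept. Each of the 5 Kcnq genes had regions in both lists, a state of 41.9% of all genes. Of the 11 Kcnq control regions 9 were kept (81.8%, interval 52.3% to 94.9%), beside 63.7% of all regions of the same fold enrichment. Of the 11 Kcnh regions 5 were kept (45.5%, interval 21.3% to 71.99%), beside 64.0% of all such regions. The Kcnq and Kcnh shares, like those of Kcnd and Kcnip, were picked from many small subfamilies after the values were seen, and were not tested. Kcnh4 had the strongest region of the family in the list labelled knockout only, inside the gene with 7.75 and 14 reads. Kcnb2 had a region in that list alone (4.86, 8 reads).

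Inward rectifiers had a control region near 7 of 15 genes (46.7%, beside 50.1% of all genes). In this class 9 of 12 regions were kept (75%, interval 46.8% to 91.1%), beside 66.6% of all regions of the same fold enrichment. Kcnj9, a subunit of the G-protein-gated channels, had 3 regions inside its 8.82 kb span. The strongest of them, at chr1:172326212-172326449 with 11.5 and 22 reads (interval 13.8 to 33.3), was the strongest lost region of the family. The nearest region of the other list lay 1.13 kb away, where a weaker control region of the gene was kept (6.59, and 7.37 in the other list). Kcnj6, another G-protein-gated subunit, had 4 regions and 3 were kept, with control values from 5.61 to 9.76. Kcnj5, which forms the atrial acetylcholine-activated channel with Kcnj3, had 1 kept region 6.13 kb upstream (8.63, and 6.62 in the other list), whereas the nearest control summit to Kcnj3 lay 1326 kb away, the farthest of any Kcn gene. Kcnj12, a further inward rectifier of the ventricle, had a region in the list labelled knockout only (5.94, 10 reads), and Kcnj10 had such a region inside the gene (7.31, 14 reads) beside its kept region (3.87, and 8.10 in the other list).

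The tandem-pore genes had a control region near 7 of 14 (50%, beside 50.1% of all genes), with the highest class median, 11.5. In this class 8 of 9 regions were kept (88.9%, interval 56.5% to 98.0%), beside 88.8% of all regions of the same fold enrichment. The strongest region of the family lay 2.30 kb downstream of Kcnk18, at chr19:59239323-59239838, with 24.8 and 63 reads (interval 48.4 to 80.6) in control and 25.4 and 51 reads (38.0 to 67.1) in the other list. Kcnk9 had 2 kept regions, with 14.7 and 9.06 in control and 10.1 and 5.07 in the other list. At the Kcnk13 promoter the values were 13.5 and 12.97, and the list labelled knockout held a second region inside the gene (7.56, 13 reads). The lost region was that at the Kcnk15 promoter (4.99, 9 reads), while the other Kcnk15 region, with 8.97, was kept. Kcnk3 and Kcnk2, leak channels found in heart, had no region, and their nearest control summits lay 12.98 kb and 177 kb away.

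Calcium- and sodium-activated channels had a control region near 5 of 8 genes (62.5%, beside 50.1% of all genes). In this class 11 of 14 regions were kept (78.6%, interval 52.4% to 92.4%), beside 74.2% of all regions of the same fold enrichment. Kcnma1, the large-conductance calcium-activated channel, had more regions than any other Kcn gene, with 6 in its 713 kb span or just upstream, of which 5 were kept. Its strongest, 3.37 kb upstream, had 12.2 and 24 reads in control and 7.56 and 13 reads in the other list. Kcnn1, a small-conductance channel, had 4 regions in a much shorter stretch and all were kept, with control values of 14.6, 14.5, 13.6 and 8.52 and 13.2, 8.21, 7.40 and 11.4 in the other list. Of these, only the region with 13.6 lay inside the gene, and the other 3 lay nearer to Ccdc124 or Arrdc2. Kcnn2 and Kcnn3, further small-conductance genes on the cardiac list, each had 1 control region of low strength (4.65 and 4.45), and both were lost.

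Auxiliary subunits had a control region near 12 of 16 genes (75%, beside 50.1% of all genes). In this class 25 of 29 regions were kept (86.2%, interval 69.4% to 94.5%), beside 73.4% of all regions of the same fold enrichment. This interval overlapped that of the voltage-gated class. The class share includes the 13 Kcnip regions, all kept, whose contrast was noticed above after the values were seen. Of the other auxiliary regions, 4 of 6 were kept near Kcnab genes, 5 of 7 near Kcne genes and 3 of 3 near Kcnmb genes. Kcnip1 had 4 kept regions with control values from 4.92 to 12.5, and Kcnip3 had 4 with 6.04 to 11.7. Kcnab2, a cytoplasmic beta subunit, had the second-highest value of the family, 18.6 with 47 reads, and 11.6 with 29 reads in the other list. In Kcnab1 2 of 4 regions were lost, and the stronger of these (10.97, 21 reads) lay inside the neighbouring gene Ssr3. Among the single-span Kcne subunits, Kcne1, the partner of Kcnq1, had 2 kept regions with 11.2 and 6.04, and Kcne2 had 1 with 7.38. The Kcne1 region with 11.2 lay nearer to Smim34, at 3.25 kb, than to Kcne1. Between the neighbouring genes Kcne2 and Kcne1 4 control regions were called, the strongest with 14.5, and 3 were kept. Kcne3 had 3 regions, 2 of them kept with 7.77 each, and its lost region (4.49, 8 reads) lay 29 bp from a region of the other list. Kcne1l had 1 lost region (4.99), which lay nearer to Acsl4. Kcnmb3, a beta subunit of the calcium-activated channel, had 2 kept regions upstream, and 2 further regions in the list labelled knockout only, the stronger with 5.64. The weaker (5.19, 11 reads) lay 30 bp from a control region without overlapping it. Each of the kept and further regions lay nearer to another gene than to Kcnmb3. The region with 5.64 lay inside Pik3ca, and the others lay inside Zfp639 or within 1.45 kb of it. A further list held 17 channel and auxiliary genes with known roles in heart, among them Kcnj3, Kcnj5, Kcnj8, Kcnj12, Kcna4, Kcnk2, Kcnk3, Kcnn2, Kcnn3, Kcnab1, Kcnab2 and the Kcne genes. Of these 17 genes 10 had a control region, beside 50.1% of all genes. Near the 17 genes 12 of 19 regions were kept (63.2%, interval 41.0% to 80.9%), beside 68.8% of all regions of the same fold enrichment.

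The 37 genes without a region included Kcna1, Kcna3, Kcna4, Kcnj8, the pore of the vascular ATP-sensitive channel, and all 3 Kcns genes. Their nearest control summit lay from 12.8 kb (Kcnj4) to 1326 kb (Kcnj3) away with a median of 41.3 kb, and for 31 of them it lay within 100 kb. The 6 beyond were Kcna4, Kcnc2, Kcnj3, Kcnk2, Kcnt2 and Kcnv1. For 26 of the 37 the nearest summits of both lists lay at the same distance to within 0.6 kb. Besides the genes named here, and Kcna5 and Kcnk3 above, the 37 included Kcnab3, Kcne4, Kcnf1, Kcng4, Kcnh5, Kcnh7, Kcnh8, Kcnj13, Kcnj14, Kcnj15, Kcnj16, Kcnk1, Kcnk5, Kcnk6, Kcnk10, Kcnk12, Kcnmb1, Kcnmb4, Kcnrg, Kcnt1 and Kcnu1. At the edge of the 10 kb window, the last regions inside it lay 9.53 kb from Kcne1 (11.2), 9.63 kb from Kcng1 (10.97) and 9.88 kb from Kcna7 (7.48), and the first outside it 10.0 kb from Kcng3 (5.27), 10.5 kb from Kcna10 (12.6) and 10.7 kb from Kcnj9 (12.05).

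Among genes whose products assemble with these channels, Abcc8, the sulfonylurea receptor gene next to Kcnj11, had 2 control regions, both kept (8.37 and 5.98), of which the first is the Kcnj11 region. The list labelled knockout held 5 regions near Abcc8. Abcc9, the receptor of the cardiac ATP-sensitive channel, had 1 lost region (4.75, 10 reads). Dpp6, an accessory subunit of the Kcnd channels, had 7 control regions in its 910 kb span and 3 were kept. Dpp10, another such subunit, and Akap9, which anchors protein kinase A to the Kcnq1 channel, had no region in either list. Genes with the symbol prefixes Scn, used for sodium channels, and Cacn, used for calcium channels, were also counted. They were taken by prefix alone, without a check that each encodes a voltage-gated channel. Of 18 Scn genes 14 had a control region (77.8%). So did 20 of 26 Cacn genes (76.9%), beside 50.1% of all genes. These genes were longer, with median spans of 62.7 kb and 104 kb beside 32.7 kb for Kcn. Over all genes, 58.6% of those from 30 to 100 kb and 71.4% of those over 100 kb had a control region. Of the Scn control regions 16 of 24 were kept (66.7%, interval 46.7% to 82.0%). Of the Cacn control regions 38 of 50 were kept (76%, 62.6% to 85.7%), beside 69.0% of all control regions. Both intervals overlapped that of the Kcn genes, 65.0% to 81.1%.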

How the data were processed

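The files were 2 peak lists, 1 per ChIP library, on mm10. The tools were MACS2, Bowtie2 2.2.6 and SAMtools 0.1.19, per the submitters' processing notes, with the MACS2 version and threshold not given in the sources used here. The authors deposited for every region its position and summit, a score, −log10 of p and of q, and the fold enrichment, a ratio of signal to local background. Peaks were called per library. The 2 input samples and any pressure-overload samples were not analysed here, and ChIP measures no expression, so cell type was not checked by markers.

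Gene spans came from a RefSeq table of GRCm38.p6 without exons; exon and intron places were not assigned, and the side of a region was known for genes in the promoter table only. Fold enrichments were ranked only within their own list, and no direction is read where both stand side by side. The p-value and fold were solved for a whole pileup, which returned each deposited −log10 p to within 0.001 (100% of either list); reads per library are unknown. The steps were tested on simulated data. No test compared the genotypes. Intervals are Wilson 95% for shares and exact Poisson 95% for pileups.

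Members and gene lists were chosen with earlier results of these data known. Named genes were the 8 cardiac channels, those with the 10 strongest control, 5 strongest lost and 5 strongest regions labelled knockout only, genes with 3 or more regions, the 3 regions on each side of the window edge, and listed cardiac and partner genes with a region; the remaining genes were named for their promoter or subfamily after their values were seen. Some genes are counted in the totals but not reported here by name. Alternatives varied the threshold, window, overlap rule, list length and pileup. Analyses ran in Python 3.11.15 with matplotlib 3.10.9, scipy 1.17.1, pandas 2.3.3 and numpy 2.4.6.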

Additional observations from a re-analysis of the deposited data

How the results depend on the processing

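No paired analysis was possible because there was 1 ChIP library per genotype, and for the same reason no library could be left out. Of 49 alternative values for the 6 family-wide results 38 stayed within 1.5 times the reported count or inside the 95% interval of the reported share, which are wide limits, and 11 did not. With a 50 kb window 79 Kcn genes had a control region (72.9% of all genes), 72 a region labelled knockout (68.6%), 71 both (66.7%) and 14 neither (25.2%). With a 2 kb window these counts were 38, 35, 33 and 54. Of the Kcn control regions, 82.2% were kept with lists of equal length (78.5% over all regions) and 64.9% under a reciprocal overlap of 50% (59.8%). The share of regions labelled knockout without a control region was 20.8% with lists of equal length (21.0%), 25% with the reciprocal overlap (25.7%) and 20.8% with summits within 100 bp (19.004%). Alternatives on the pileup and on matches within 500 bp were added after seeing the data. With at least 15 reads in both lists, 26 genes had a region labelled knockout (27.8% of all genes), 25 had regions in both (25.5%) and 51.5% of control regions were kept (62.8%); with that minimum in the control list alone 90.9% were kept (90.6%). Each of these moved in the same direction over all genes or regions. The kept share near Kcn genes was above that of all regions in the main setting (73.9% beside 69.0%). With at least 15 reads in both lists it was below it. Of 136 values for single cardiac genes 20 moved. Some of the 136 could not move, because Kcna5 had no control region and Kcnd2 no kept one, and a stricter setting cannot change such a count. Under 15 reads in both lists no kept region was left near Kcnj2 or Kcnip2 and 1 near Kcnq1. Where the setting did not itself drop or add regions, the cause was not tested.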
